A study of Mus musculus with 16 samples.

Results

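Cytosolic ribosomal protein genes were followed in the mouse epididymis through fetal life and shortly after birth. Their members were taken by symbol, as every gene whose name starts with Rpl or Rps and a number, without the Rps6k kinases. This gave 48 genes (24 Rpl, 24 Rps) on 103 of the 45101 probe sets, and each gene stands by its brightest probe set over the 15 epididymis arrays. Of these, 46 were bright enough to be tested, among 12239 genes in all. Sperm mature in the epididymis, a long coiled tube that arises from the Wolffian duct of the embryo. All epididymis samples came from wild-type CD-1 males, an outbred stock, with 3 Affymetrix arrays at each of 5 stages: gestational day 12 (gd12), 14 (gd14), 16 (gd16) and 18 (gd18) and postnatal day 2 (pnd2). Theiler stages 20, 22, 24, 26 and 27 are given for them. The series' design text names a pair of organs from a single animal as the sample, each animal from its own dam, while the sample labels mark every gd12 and gd14 sample as a pool of 3 and the later samples as not pooled. Pooling and stage therefore cannot be told apart wherever gd12 or gd14 is set against gd16, gd18 or pnd2. This covers gd14 against gd16, gd12 against pnd2 and any measure over all 5 stages. A further array held RNA of a pool of 8 whole newborns (4 male, 4 female) at postnatal day 0.5, wild-type, with no strain label. It is no control of a group and was not tested.

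A cytosolic ribosome is built from a small 40S and a large 60S subunit, and each holds ribosomal RNA and a fixed set of proteins, the Rps and Rpl proteins. Their messengers are among the most abundant in any dividing or secreting cell. They begin with a run of pyrimidines, the 5′ terminal oligopyrimidine (TOP) tract, through which growth signals of the mTOR pathway set their translation, so their protein output can change while the messenger level does not. Most of these proteins are made in every cell, but mammals also carry paralogues with restricted use: Rpl39l in male germ cells, Rpl3l in heart and skeletal muscle, and Rpl22l1, Rps27l and Rpl7l1 more broadly.

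The 48 symbols fall into 3 kinds. There were 40 constitutive proteins of the subunits, of which 39 were tested (20 of the 60S, 19 of the 40S subunit). There were 6 paralogues, Rpl39l, Rpl22l1, Rps27l, Rpl3l, Rps4l and Rpl7l1, of which Rps4l is listed by RefSeq as a transcribed pseudogene. The rule also took in Rps15a-ps6, another transcribed pseudogene, and Rps19bp1, which is a binding partner of Rps19 and no ribosomal protein. Rps16 and Rpl3l did not pass the filter, a signal at or above the array's median on at least 3 epididymis arrays, and are described by their values. Of the 39 constitutive genes 38 met it on all 15 arrays, while Rpl39l met it on 7 and Rps15a-ps6 on 4. A further 109 probe sets list ribosomal protein genes under several symbols, and 27 such genes were seen there only; no gene is named from them here.

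The signal is a brightness scaled by the authors' scanner software, in arbitrary units, and levels are compared between arrays and not between genes. Changes are differences of log2(signal + 16), with the standard error (SE) of a limma fit to all 15 epididymis arrays and n = 3 arrays a stage. A gene is called when its limma p, adjusted over all 12239 genes by Benjamini-Hochberg, is under 0.05.

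The library of pnd2 replicate 3 stood apart. Its ratio of 3′ to 5′ signal was 63.16 for Gapdh, against 4.333 to 7.18 on the other epididymis arrays, and 80.73 for Actb against 2.404 to 4.141. Its median signal over all probe sets was 81.24, and those of the other epididymis arrays ran from 110.27 to 132.97. The constitutive ribosomal proteins moved with it: 32 of 39 were brighter on this array than the mean of replicates 1 and 2, with a median difference of 0.39 on the log2 scale, against 45.6% of all genes and a median of -0.12. Changes to pnd2 are therefore given with and without this array. Of 20 Wolffian duct and epididymis markers 15 were measured, and their summed signal ran from 9617 to 18610 over the gd12 arrays and from 56840 to 62722 at pnd2. At gd12, 1 of the 15 lay below the array's median on all arrays, and 0 did so at gd14, gd16, gd18 or pnd2. Adgrg2, a marker of this list, read 24.53, 81.21 and 517.1 at gd12, where the array medians were 121.63, 110.27 and 122.16. The summed signal of these markers was thus lower at gd12 than later, but not every marker followed it. From gd12 to gd14 6 of 15 were called higher and 0 lower (40%, beside 6.71% of all genes higher). Without pnd2 replicate 3 it was 7 higher and 1 lower (46.7% and 6.67%, beside 15.7% and 14.1%). From gd12 to pnd2 12 were called higher and 0 lower (80%, beside 14.4%). Epcam, another marker, read 2873, 3530 and 3005 at gd12 and 3173, 3173 and 3450 at gd14.

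Promoters of 41 of the 48 genes were found in RefSeq's table (GRCm38.p6) and were searched for the pyrimidine tract that the family is known for. The 80 bases from 60 before to 20 after the annotated start are printed for 3 constitutive genes with a tract, Rpl38, Rps9 and Rpl35, and for the pair of Rpl39 and Rpl39l, which differed most in their course. Capitals mark a pyrimidine tract, defined as C followed by at least 4 further C or T, starting between 5 bases before and 15 bases after the start. A run that begins ahead of this window is marked only from a C within it, as in Rpl35. Rpl39l also has a run of C and T directly before the start. It begins ahead of the window and is not marked, so the lack of capitals there is no sign that pyrimidines are absent.
Rpl38, chr11:114668520-114668599, plus strand: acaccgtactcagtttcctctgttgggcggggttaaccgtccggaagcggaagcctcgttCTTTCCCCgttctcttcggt
Rps9, chr7:3703981-3704060, plus strand: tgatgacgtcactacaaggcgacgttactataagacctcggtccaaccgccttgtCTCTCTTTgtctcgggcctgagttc
Rpl35, chr2:39005112-39005191, minus strand: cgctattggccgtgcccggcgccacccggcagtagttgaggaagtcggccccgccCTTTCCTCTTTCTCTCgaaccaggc
Rpl39, chrX:37085203-37085282, minus strand: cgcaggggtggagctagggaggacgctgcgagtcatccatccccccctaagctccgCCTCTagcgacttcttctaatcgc
Rpl39l, chr16:10170168-10170247, plus strand: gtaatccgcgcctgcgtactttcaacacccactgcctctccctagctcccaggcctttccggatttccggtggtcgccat

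A tract of this definition was found in 19 of 35 constitutive genes with a promoter (54.3%), against 29.1% of all 27025 promoters in the table. In the 250 bases before the start, searched on both strands, CCGGAAG, a form of the ETS factor site, was found in 14 of 35 (40%) against 7.05%. The shorter GGAAG, which is contained in it, was found in 29 of 35 (82.9%) against 63.6%. GGGCGG, the Sp1 box, was found in 16 (45.7%) against 32.9%, TATAA in 8 (22.9%) against 23.5%, and AAGATGG, a form of the YY1 site, in 3 (8.57%) against 4.53%. These are matches of letters in the windows and no measurement of binding.

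Across the 5 stages the signal of the constitutive ribosomal proteins kept to a narrower range than that of genes at large. The range of the 5 stage means had a median of 0.45 over the 39 genes on the log2 scale, against 0.79 over all genes tested, and it was 0.37 against 0.67 without pnd2 replicate 3. It lay under 1, a 2-fold difference, in 37 of the 39, against 65.8% of all genes. Within a fetal stage the arrays of a constitutive gene had a median SD of 0.14. A comparison with genes of like brightness was not made.

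The smallest ranges of stage means among the tested genes belonged to Rpl8 (0.18), Rps14 (0.18), Rps3 (0.21), Rps4x (0.22) and Rps2 (0.24). Rpl8 sits close to the peptidyl transferase centre of the 60S subunit, and Rps3, Rps14 and Rps2 are 40S proteins. The signal of Rps4x, the X-linked 40S protein, was 36953, 35551 and 35346 at gd12, 37358, 36891 and 34312 at gd14, and 37383, 37185 and 31221 at gd16. It was 39844, 37460 and 41586 at gd18 and 40084, 41435 and 41036 at pnd2. Its gd18 and pnd2 arrays lay above all earlier arrays by a small margin, and its change from gd12 to pnd2 was 0.18 ± 0.09 (SE, adjusted p = 0.129), and also 0.18 without pnd2 replicate 3. The range of Rpl8 was 0.49 without pnd2 replicate 3, since that array read 11397 beside 29900 and 27900. Without it the ranges of Rps14, Rps3 and Rps2 were 0.29, 0.28 and 0.30. The smallest then belonged to Rpl22l1 (0.14), Rps24 (0.18), Rpl7 (0.19) and Rps4x (0.21). Which genes have the smallest ranges therefore rests on that array, except for Rps4x.

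**Figure D1:**
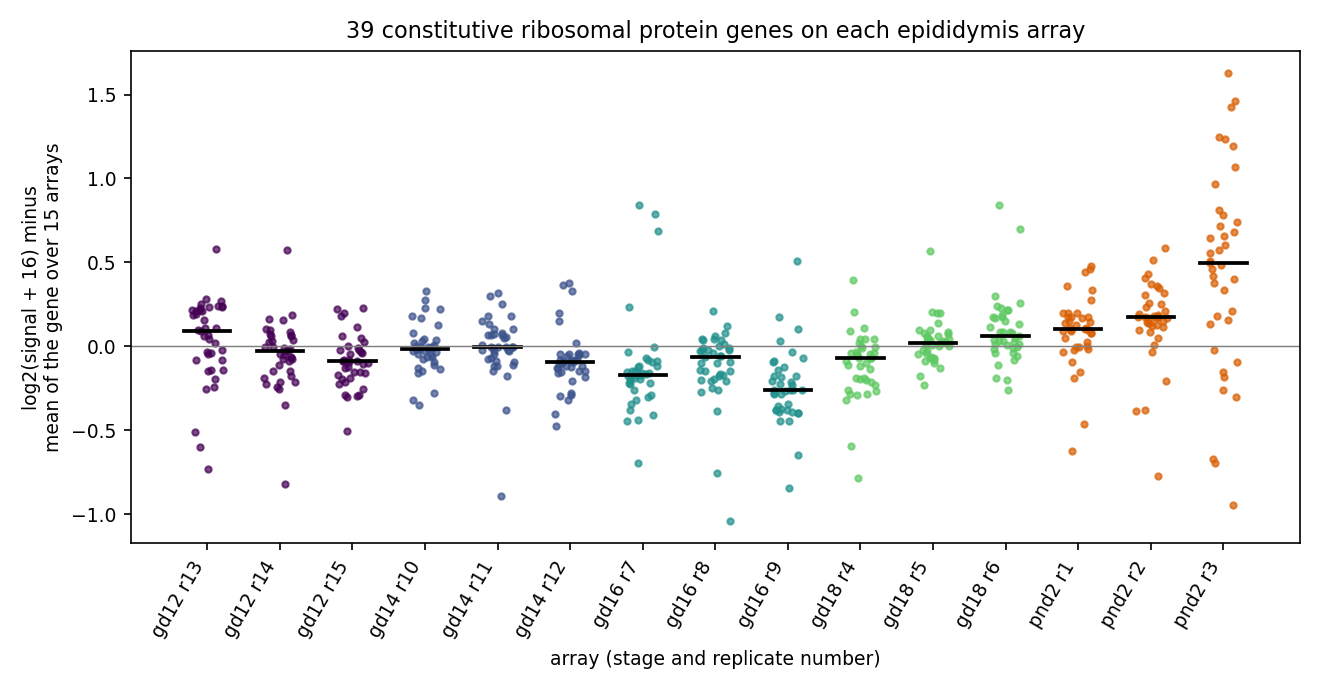
Log2(signal + 16) of each of the 39 tested constitutive ribosomal protein genes on each epididymis array, minus the gene's mean over the 15 arrays; points are genes, the black bar is the median over genes, colours are stages. The fetal arrays have medians from -0.26 (gd16 replicate 9) to 0.09 (gd12 replicate 13), pnd2 replicates 1 and 2 lie at 0.10 and 0.17, and pnd2 replicate 3 lies at 0.49 with the widest scatter of genes.

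From gd12 to gd14, the step between neighbouring stages with the most genes called, no constitutive ribosomal protein was called. Of 46 members tested 0 rose and 1 fell, the paralogue Rps4l, while 12.5% of all genes were called (6.71% higher, 5.74% lower). The median change of the 39 constitutive genes was -0.03, against 0.03 over all genes. Of the 39, 18 were higher and 21 lower, while 52.2% of all genes were higher. After quantile normalization the sign of the median of the 39 turned, to 0.04. Among the 39, 37 changed by less than 0.5, against 66.6% of all genes. At an unadjusted limma p under 0.05 the count was 0 of 39. The share of all genes under that limit was not counted, here or for the later counts at an unadjusted p. Without pnd2 replicate 3, an array that enters the shared estimate of spread, 29.8% of all genes were called (15.7% higher, 14.1% lower) and 4 of 46 members, all lower: Rpl27, a 60S protein, by -0.28 ± 0.10 (adjusted p = 0.0403), and the paralogues Rps27l, Rps4l and Rpl39l.

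From gd14 to gd16 most constitutive proteins had a slightly lower mean and from gd16 to gd18 a slightly higher one, and in limma 0 members were called in either interval. From gd14 to gd16, 34 of 39 were lower, with a median of -0.12 against -0.03 over all genes. Of all genes, 44.7% had a higher mean and 0.106% were called (0.0572% higher, 0.049% lower). The count at an unadjusted p under 0.05 was 2 of 46. From gd16 to gd18, 34 of 39 were higher, against 52.2% of all genes, with a median of 0.18 against 0.01. Of all genes 0.327% were called (0.237% higher, 0.0899% lower), and 5 of 46 members had an unadjusted p under 0.05. Without pnd2 replicate 3, 0 of 46 members were called from gd14 to gd16, beside 1.16% of all genes (0.711% higher, 0.449% lower), with 9 at an unadjusted p under 0.05. From gd16 to gd18 1 was called, Rps4l, beside 1.75% of all genes (1.32% higher, 0.433% lower). After quantile normalization the same medians were -0.06 against -0.04 over all genes and 0.03 against 0.02. The counts were then 28 of 39 lower and 25 of 39 higher. Both the size of the dip at gd16 and its difference from genes at large therefore depend on the scaling. With all arrays, 27 of the 39 had their lowest stage mean at gd16, and the same count over all genes was not made. The array medians of the 39 genes at gd16 ran from 14.05 to 14.18 and at gd18 from 14.24 to 14.43, and did not overlap, while those of gd14, 14.10 to 14.30, overlapped both.

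From gd18 to pnd2 most constitutive proteins had a higher mean, and limma called 0 of 46 members, beside 0.596% of all genes (0.261% higher, 0.335% lower). The median of the 39 was 0.27, against -0.05 over all genes, with 33 higher, beside 45.5% of all genes. An unadjusted p under 0.05 was found for 20 of the 46 members, a count with no share of all genes beside it. Median centring moved both medians up together, to 0.50 and 0.18, and quantile normalization brought them to 0.12 and 0.03. Without pnd2 replicate 3 the median was 0.16 against 0.01, with 36 of 39 higher, 6 of the 46 had an unadjusted p under 0.05, and 1 was called, beside 1.96% of all genes (0.833% higher, 1.13% lower). That gene was Rps6, the 40S protein that S6 kinase phosphorylates, and it fell.

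Rps6 read 1300, 1224 and 2462 at gd12, 1735, 2257 and 2821 at gd14 and 3914, 1823 and 3102 at gd16. It read 2858, 3229 and 3540 at gd18 and 1405, 1263 and 2035 at pnd2. All pnd2 arrays lay below all gd18 arrays, and the pnd2 and gd12 arrays overlapped. The change from gd18 was -1.05 ± 0.31 (SE, adjusted p = 0.131), and -1.25 ± 0.30 (adjusted p = 0.0488) without pnd2 replicate 3. A further probe set of Rps6 read 5.36 to 82.89 and was not kept.

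Between gd12 and pnd2, the ends of the series, 6 of 46 members rose and 2 fell, beside 14.4% of all genes called higher and 13.1% called lower. The share of members called was 17.4%, against 27.5% of all genes, so the members were not called more often than genes at large. The 6 that rose were the 60S proteins Rpl37 and Rpl38 and the 40S proteins Rps26, Rps9, Rps29 and Rps20, and the 2 that fell were the paralogues Rpl39l and Rps4l. Over the 39 constitutive genes the median was 0.27 against -0.07, with 33 higher, beside 45.9% of all genes. The subunits gave like values, with a median of 0.28 over 20 genes of the 60S and 0.26 over 19 of the 40S subunit. It was 0.11 against -0.02 (26 higher) after quantile normalization and 0.41 against 0.07 (37 higher) after median centring. Without pnd2 replicate 3 it was 0.15, with 34 higher, and 5 of the 39 were called, beside 18.7% of all genes called higher. The count of 8 members was 16 without pnd2 replicate 1 and 5 without gd12 replicate 14 or 15. The shares of all genes called in those fits are not given, so these counts are no result about the members.

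Rpl38, the 60S protein mutated in the Tail short mouse, rose with and without pnd2 replicate 3. It read 20057, 18682 and 18082 at gd12 and 24964, 27496 and 52060 at pnd2. The groups did not overlap, but pnd2 replicate 3 lay far above its mates. The change was 0.80 ± 0.21 (SE, 1.74-fold, adjusted p = 0.0114) with that array and 0.47 ± 0.12 (1.38-fold, adjusted p = 0.00668) without it.

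Rps29, a small zinc-binding 40S protein, read 35701, 32337 and 32660 at gd12 and 42663, 41554 and 53225 at pnd2. The change was 0.44 ± 0.10 (adjusted p = 0.00612), and 0.33 ± 0.09 (adjusted p = 0.011) without pnd2 replicate 3. All 3 of its probe sets gave a rise in that reduced set, of 0.33 to 0.42.

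Rps9, a 40S protein at the messenger entry, read 9688, 8388 and 10366 at gd12 and 14710, 14190 and 10538 at pnd2. Here pnd2 replicate 3 was the lowest of its group and nearly met the highest gd12 array. The change was 0.46 ± 0.15 (adjusted p = 0.0303), and 0.61 ± 0.12 (adjusted p = 0.00102) without that array. Of the 3 kept Rps9 probe sets, a further one of suffix x read 1210, 676.4 and 900.9 at gd12. At pnd2 it read 1210, 1259 and 1426, a change of 0.51. The dimmest, without a suffix, read 375.0, 466.0 and 537.9 at gd12 and 404.6, 506.8 and 79.37 at pnd2. The dimmest gave a change of -0.77 (adjusted p = 0.22) with pnd2 replicate 3 and of -0.01 without it. This 1 probe set thus shows neither the rise nor, without that array, a lower level.

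Rps26, which lies at the messenger exit of the 40S subunit, read 17134, 15357 and 14282 at gd12 and 17240, 22491 and 30155 at pnd2. Its change was 0.55 ± 0.16 (adjusted p = 0.0235), and 0.34 ± 0.13 (adjusted p = 0.0473) without pnd2 replicate 3. Rpl37 read 637.0, 784.6 and 766.2 at gd12 and 826.7, 1100 and 2394 at pnd2. It changed by 0.82 ± 0.29 (adjusted p = 0.0488), and its call was lost without that array (0.39 ± 0.17, adjusted p = 0.0982). Rps20, a 40S protein, read 31785, 29739 and 24598 at gd12 and 34811, 34133 and 39497 at pnd2, without overlap. It rose by 0.34 ± 0.11 (adjusted p = 0.0281), and its call was lost likewise (0.27 ± 0.10, adjusted p = 0.0551). Without pnd2 replicate 3 the 4 kept probe sets of Rps20 changed by -0.17 to 0.40. Rps19, the 40S protein most often mutated in Diamond-Blackfan anaemia, was called without pnd2 replicate 3 only (0.47 ± 0.15, adjusted p = 0.0206), since that array read 10594 beside 23525 and 20899.

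An F test across all 5 stage means called 8 of 46 members, beside 26.5% of all genes. They were Rps29, Rpl6, Rpl35, Rpl38, Rps9, Rpl37, Rps4l and Rpl39l. Rpl6, a 60S protein, was called here (adjusted p = 0.0169) but in no single comparison. It read 33530, 32827 and 30855 at gd12, 31083, 28806 and 28225 at gd14, 27846, 28376 and 24191 at gd16, 32212, 32081 and 32698 at gd18 and 33281, 37369 and 39486 at pnd2. Its gd16 arrays were low, all below every gd12, gd18 and pnd2 array, and overlapped those of gd14. Rpl35, another 60S protein, was called likewise (adjusted p = 0.0414), with its lowest stage mean also at gd16. When pnd2 replicate 3 was left out the F test called 16 of 46, beside 45.7% of all genes. It called 17 without pnd2 replicate 1. The count was 3 to 5 without any of gd18 replicates 4 to 6 or gd16 replicates 7 to 9. It was also 3 to 5 without any of gd14 replicates 10 to 12 or gd12 replicates 14 and 15. For these fits the share of all genes called is not given.

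**Figure D2:**
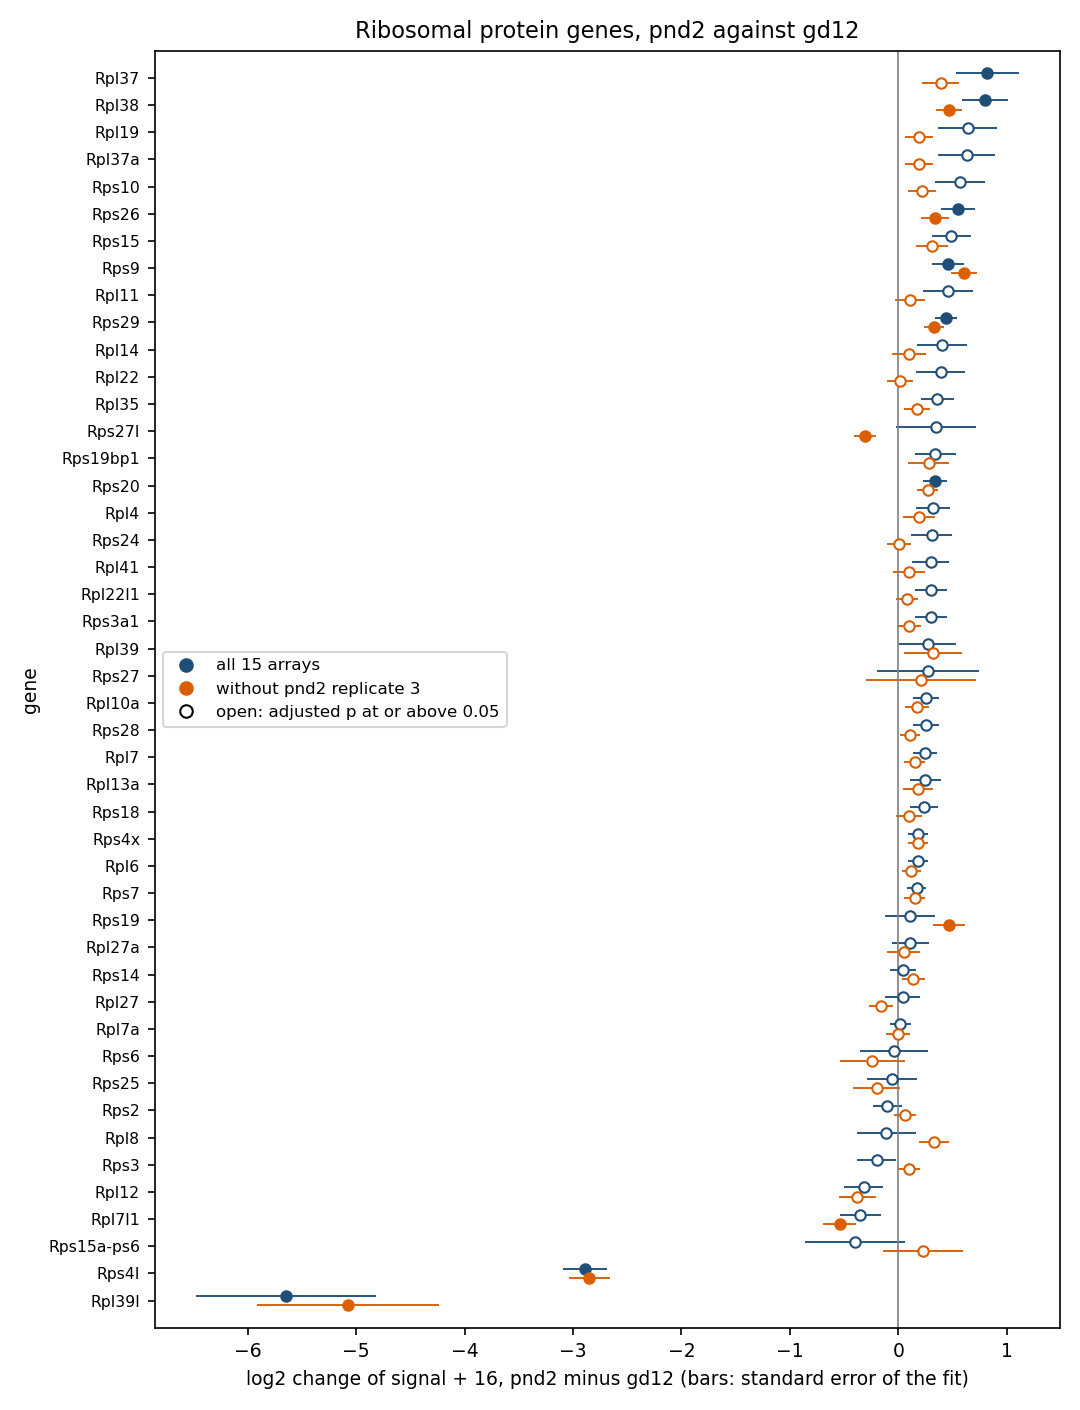
Change from gd12 to pnd2 of each of the 46 tested members, in log2 units of signal + 16, with the standard error of the limma fit as bars; blue is the fit to all 15 arrays, orange the fit without pnd2 replicate 3, and filled points are called. Rpl39l (-5.65) and Rps4l (-2.89) stand far to the left in both fits, and the constitutive genes lie between -0.32 and 0.82, from -0.38 to 0.61 without that array.

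The members with the largest changes were 2 paralogues. Rpl39l, the paralogue of the 60S protein Rpl39 that male germ cells use, read 1681, 2236 and 2092 at gd12. It read 357.9, 215.4 and 474.7 at gd14, 6.45, 3.65 and 208.3 at gd16, 98.64, 4.18 and 28.18 at gd18, and 66.39, 26.62 and 2.13 at pnd2. Every gd12 array lay above every gd14 array, and every gd14 array above every later array. The 3 later stages overlapped and did not separate. From gd12 to pnd2 Rpl39l fell by 5.65 ± 0.83 (SE) on the log2 scale (50.2-fold, adjusted p = 1.81e-04), and by 5.08 ± 0.84 (33.8-fold, adjusted p = 2.35e-04) without pnd2 replicate 3. Most of the later signals lie near or below the added constant, so the size of the fold depends on it: the log2 change was -4.48 with 64 added and -6.79 with 1 added.

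Between neighbouring stages the call on Rpl39l depended on the arrays fitted, the scaling and the added constant. From gd12 to gd14 the change was -2.52 ± 0.83 (5.75-fold, adjusted p = 0.0628), and it was called without pnd2 replicate 3 (adjusted p = 0.0191). It was also called after quantile normalization (adjusted p = 0.045), median centring (0.047) or with 64 added (0.0036), but not with 1 added (0.265). From gd14 to gd16 it was -2.91 ± 0.83 (adjusted p = 0.3), and without gd16 replicate 9 (208.3 beside 6.45 and 3.65) it was -4.05 ± 0.67 (adjusted p = 0.0591). That step was called with array weights (adjusted p = 0.0387). It was also called without pnd2 replicate 3, gd14 replicate 10 and gd16 replicate 9 together (adjusted p = 0.0236).

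The summed signals of germ cell and of gonad markers were, like the signal of Rpl39l, highest at gd12. Of 11 measured germ cell and pluripotency markers 0 rose and 10 fell from gd12 to gd14 (90.9%, beside 5.74% of all genes called lower). Their summed signal was 18102 to 27690 over the gd12 arrays, 1907 to 2396 at gd14, 930 to 1220 at gd16, 869.3 to 1190 at gd18 and 1203 to 1372 at pnd2. Dazl, an RNA-binding protein of germ cells, read 1216, 2611 and 2086 at gd12 and 161.9, 205.1 and 239.8 at gd14. Of 10 measured gonad supporting and interstitial markers 0 rose and 7 fell (70%), with sums of 8028 to 14041 at gd12, 1936 to 3405 at gd14, 1137 to 5382 at gd16, 1011 to 1891 at gd18 and 593.5 to 1216 at pnd2. The highest gd16 sum thus lay above every gd14 sum, and the germ cell sums of pnd2 lay above those of gd18. On gd16 replicate 9, where Rpl39l read 208.3, the steroidogenic enzyme Cyp17a1 read 2211 beside 23.34 and 8.50 on the other gd16 arrays, while Dazl read 102.8 beside 54.01 and 65.62. Cyp17a1, a gonad marker of the list, was higher at gd14 (949.2, 301.7 and 218.2) than at gd12 (15.77, 130.5 and 110.8), against the course of the sum. In whole organs fewer cells of a type and less RNA per cell cannot be told apart, and the part of germ cells and gonad tissue in the fall of Rpl39l was not tested.

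Rpl39, the widely used partner of Rpl39l, had no such course. It read 322.0, 517.0 and 344.6 at gd12, 604.0, 564.0 and 552.4 at gd14, 865.6, 487.3 and 532.5 at gd16, 403.8, 450.9 and 577.8 at gd18 and 628.1, 377.3 and 433.5 at pnd2. All gd14 arrays lay above all gd12 arrays and the later stages overlapped them both. The change from gd12 to gd14 was 0.55 ± 0.26 (adjusted p = 0.2) and that to pnd2 0.27 ± 0.26 (adjusted p = 0.462), or 0.32 without pnd2 replicate 3.

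Rps4l, related in sequence to Rps4x, had a lower mean at each successive stage. It read 2074, 2414 and 2381 at gd12, 993.4, 719.6 and 845.3 at gd14, 604.1, 845.8 and 517.2 at gd16, 402.0, 411.4 and 339.9 at gd18, and 286.7, 318.6 and 280.8 at pnd2. The stages did not overlap, except gd14 with gd16. It changed by -1.42 ± 0.20 from gd12 to gd14 (2.67-fold, adjusted p = 2.99e-04) and by -2.89 ± 0.20 from gd12 to pnd2 (7.40-fold, adjusted p = 1.48e-07). The steps in between were -0.39 ± 0.20, -0.72 ± 0.20 and -0.36 ± 0.20, not called, and the second of these was called without pnd2 replicate 3 (adjusted p = 0.0489). Its lowest epididymis array read 280.8. The germ cell markers given above also fell between gd12 and gd14, and their part in the fall of Rps4l was not tested.

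**Figure D3:**
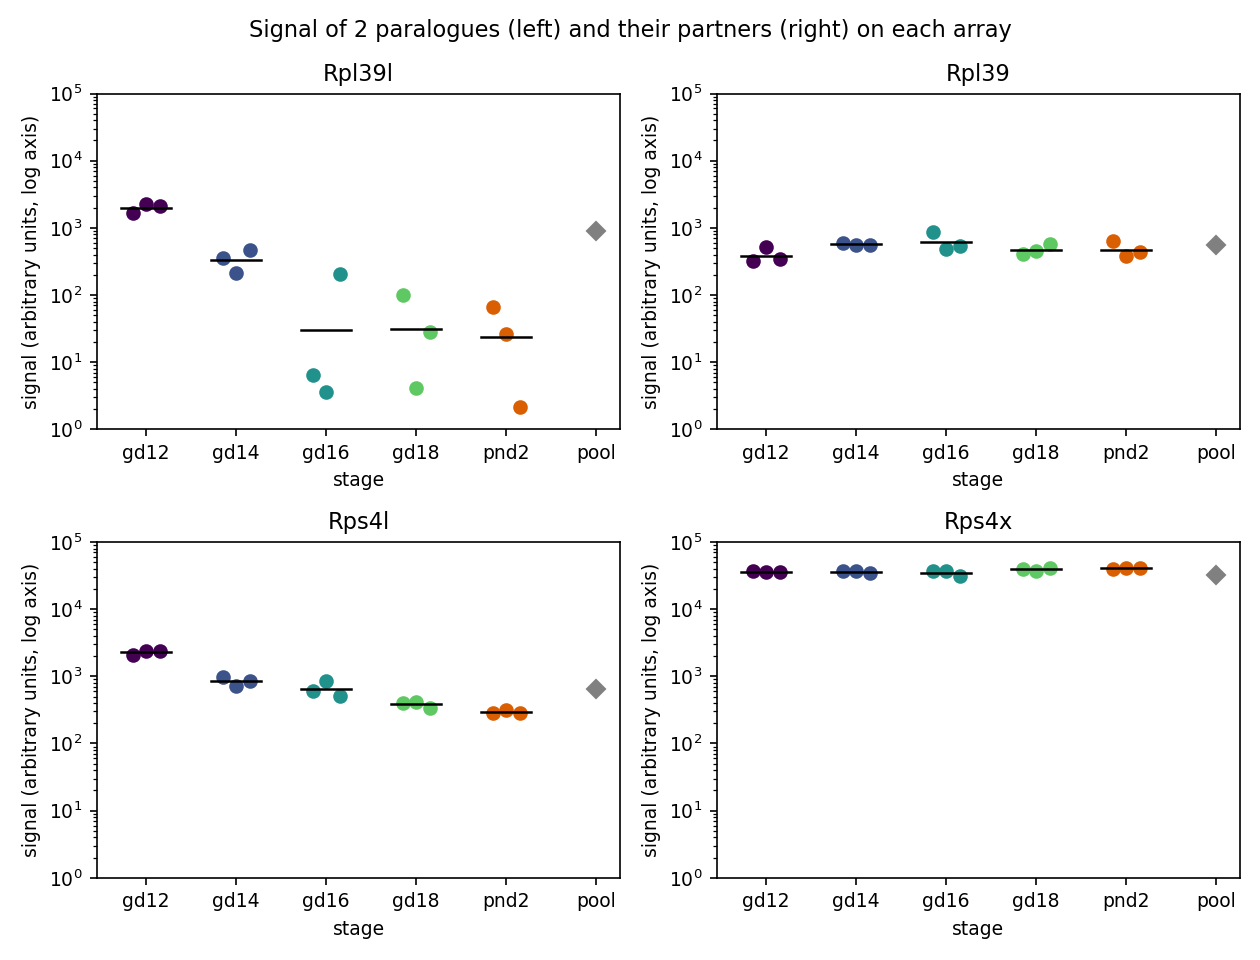
Signal on a log axis of Rpl39l and Rps4l (left) and of their partners Rpl39 and Rps4x (right) on each of 3 arrays a stage (points; bars are means of log2(signal + 16), turned back to signal) and in the newborn pool (diamond). Rpl39l lies between 1681 and 2236 at gd12 and between 2.13 and 208.3 from gd16 on, Rps4l has a lower mean at each stage, and Rpl39 and Rps4x show no such slope.

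Of the other paralogues none was called in the fit to all 15 arrays. Rps27l, a paralogue of Rps27 that p53 induces, read 2647, 2609 and 2580 at gd12, 1883, 1767 and 1800 at gd14, 1546, 1714 and 1519 at gd16 and 1819, 1782 and 1790 at gd18. At pnd2 it read 2064, 2133 and 8457. Its fetal arrays were tight, with all gd12 arrays above the rest, and pnd2 replicate 3 lay 2.00 above its mates on the log2 scale, the largest such gap of the 46 members. The change from gd12 to gd14 was -0.52 ± 0.37 (adjusted p = 0.426) with it and -0.52 ± 0.09 (adjusted p = 5.97e-04) without it. From gd12 to pnd2 the sign turned, from 0.35 ± 0.37 (adjusted p = 0.501) with it to -0.31 ± 0.10 (adjusted p = 0.0275) without it. Its partner Rps27 was dim, at 63.33 to 276.2 on the epididymis arrays, and changed by 0.27 ± 0.47 from gd12 to pnd2 (adjusted p = 0.694), and by 0.21 without that array.

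Rpl7l1 read 1969 to 2484 at gd12 and 1265, 1714 and 2193 at pnd2, a change of -0.35 ± 0.19 (adjusted p = 0.189), and of -0.54 ± 0.15 (adjusted p = 0.0127) without pnd2 replicate 3. Its partner Rpl7, a 60S protein, changed by 0.25 ± 0.11 (adjusted p = 0.0938), and by 0.15 without it. Rpl22l1 read 12518 to 14273 over all fetal arrays and 16086, 12796 and 22698 at pnd2, a change from gd12 of 0.30 ± 0.15 (adjusted p = 0.157), or 0.08 without pnd2 replicate 3. Its partner Rpl22 changed by 0.39 ± 0.23 (adjusted p = 0.22), and by 0.02 without that array. Differences between a paralogue and its partner were not tested.

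Of the remaining symbols, Rps15a-ps6 was dim, at 6.35 to 165.5, with its lowest array at pnd2 replicate 3, and its change from gd18 to pnd2 was -1.45 ± 0.46 (adjusted p = 0.153), or -0.82 (adjusted p = 0.268) without that array. Rps19bp1 read 403.7 to 725.2. Rps16 read 1.41 to 5.02 on every epididymis array, on its only probe set with a single symbol. Rpl3l read 2.14 to 56.94.

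In the newborn pool, a single array with no replicate, most constitutive genes lay at levels seen in the epididymis. Of the 39, 30 lay within the range of the 15 epididymis arrays, 9 lay below it and 0 above, against 18.4% of all genes above and 24.2% below. Rpl12, a 60S protein near the stalk, read 111.8 in the pool against 912.9 to 1690, and Rps25 read 733.3 against 1370 to 3541. The paralogues differed in the pool: Rpl39l read 890.3 and Rps4l 645.1, both above all pnd2 arrays, and Rpl3l read 436.4. The summed signal of the germ cell and pluripotency markers was 1117 in the pool, beside 1203 to 1372 at pnd2. Of these 11 markers 9 lay below the pool array's median. The gonad markers summed to 2020, beside 593.5 to 1216. Which cells gave the signal of Rpl39l in the pool was not tested. The summed signal of 4 measured skeletal muscle markers was 81885 in the pool and 28.67 to 5605 over the pnd2 arrays, and the part of muscle in the level of Rpl3l was not tested.

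Ribosomal proteins whose symbols carry no Rpl or Rps number were few. Of Rpsa, Rplp0, Rplp2 and Fau, 0 were called in any step between neighbouring stages and 1 rose from gd12 to pnd2. That was Fau, which encodes a ubiquitin-like protein fused to a 40S protein, at 0.60 ± 0.17 (adjusted p = 0.0197), and 0.45 (adjusted p = 0.0311) without pnd2 replicate 3. Rpsa, a 40S protein also known as the laminin receptor, changed by 0.03 ± 0.12, and by 0.05 without that array. Rplp0 and Rplp2, proteins of the 60S stalk, changed by 0.34 ± 0.21 and 0.23 ± 0.19 respectively. Without that array Rplp0 rose (0.63, adjusted p = 0.00302) and Rplp2 stood at -0.02. Rplp1 was not tested.

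Few translation factors and other genes with TOP messengers were called. Of 22 tested, 0 were called from gd12 to gd14, beside 12.5% of all genes, with a median of -0.15. Between gd12 and pnd2 1 rose and 1 fell (4.55% each), beside 14.4% of all genes higher and 13.1% lower, with a median of 0.03. In the fit without pnd2 replicate 3, 4 fell from gd12 to gd14 (18.2%, beside 14.1% of all genes), and 2 rose and 2 fell from gd12 to pnd2 (9.09% each, beside 18.7% and 17%). Eef1a1, the elongation factor that brings aminoacyl-tRNA to the ribosome, changed by -0.07 ± 0.13 from gd12 to pnd2, and by 0.09 without that array. Eif3f rose by 0.37 ± 0.13 (adjusted p = 0.0419), or by 0.44 without it. Eif3l, another eIF3 subunit, changed by -0.72 ± 0.23 (adjusted p = 0.032) with pnd2 replicate 3 and by -0.35 (adjusted p = 0.0221) without it. Eif4a2, a helicase of initiation, changed by -0.74 ± 0.11 from gd18 to pnd2 (adjusted p = 0.0124), and by -0.70 without that array.

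Many of the factors that assemble ribosomes fell. Of 66 tested assembly and RNA polymerase I genes, 1 rose and 10 fell (15.2%) from gd12 to gd14, beside 5.74% of all genes called lower, with a median of -0.40. From gd12 to pnd2 0 rose and 28 fell (42.4%), beside 13.1%, with a median of -0.56. Without pnd2 replicate 3 the shares were 47% beside 14.1% and 53% beside 17%. Nolc1, a nucleolar chaperone of small nucleolar RNPs, read 1852, 2297 and 1427 at gd12 and 906.2, 1043 and 752.9 at gd14, a change of -1.02 ± 0.18 (2.02-fold, adjusted p = 0.00193). Mphosph10, of the U3 particle that cleaves pre-rRNA, changed by -0.80 ± 0.18 and Wdr12, of the 60S assembly complex PeBoW, by -0.71 ± 0.19. Taf1a, of the RNA polymerase I factor SL1, rose by 0.60 ± 0.18 (adjusted p = 0.0423). From gd12 to pnd2 Noc3l changed by -2.36 ± 0.50, Bysl by -1.70 ± 0.41 and Polr1a, the largest subunit of RNA polymerase I, by -1.46 ± 0.42; on pnd2 replicate 3 each lay below its mates, and without it the changes were -1.54, -1.22 and -0.80, each still called. No test compared the list with the ribosomal proteins. Between gd12 and gd14 the germ cell and gonad markers fell as given above, and 10 of 12 macrophage markers rose, with summed signals of 2529 to 5730 at gd12 and 10603 to 12805 at gd14. The part of these cells in the fall of the assembly factors was not tested.

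Mitochondrial ribosomal proteins make up the separate ribosome of the organelle. Of 76 tested, 0 rose and 7 fell from gd12 to gd14 (9.21%, beside 5.74% of all genes), with a median of -0.38. Between gd12 and pnd2 1 rose and 12 fell (15.8%, near the 13.1% of all genes), with a median of -0.16. In the fit without pnd2 replicate 3, 28 fell from gd12 to gd14 (36.8%, beside 14.1%), and 0 rose and 20 fell from gd12 to pnd2 (26.3%, beside 17%). Mrpl40 changed by -1.03 ± 0.20 (adjusted p = 0.00386) and Mrpl15 by -0.93 ± 0.16 (adjusted p = 0.00162) from gd12 to gd14. From gd18 to pnd2 0 were called, at a median of 0.33, and 1 rose without that array, at a median of 0.23.

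**Figure D4:**
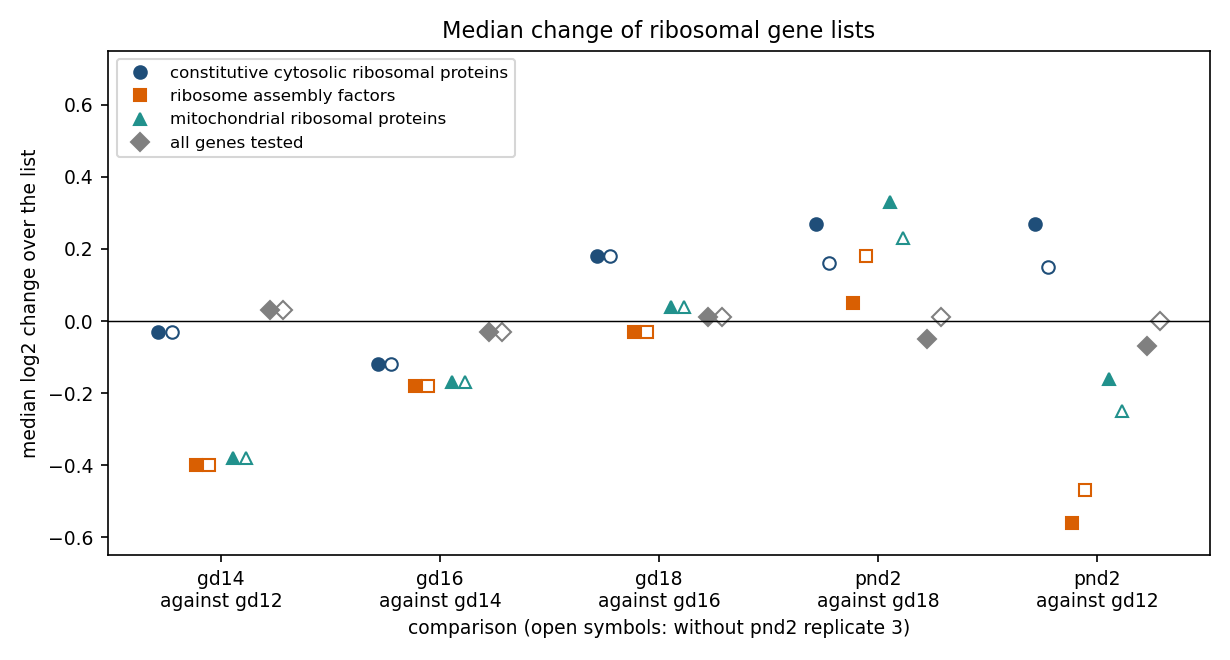
Median log2 change of the 39 constitutive cytosolic ribosomal proteins, 66 ribosome assembly factors, 76 mitochondrial ribosomal proteins and all 12239 genes tested, in each comparison; filled symbols are the fit to all 15 arrays and open symbols the fit without pnd2 replicate 3. From gd12 to gd14 assembly factors (-0.40) and mitochondrial proteins (-0.38) lie low and the cytosolic proteins (-0.03) near all genes (0.03), and from gd12 to pnd2 assembly factors lie at -0.56 and cytosolic proteins at 0.27.

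Of 20 tested regulators of ribosomal protein synthesis, 1 rose and 1 fell from gd12 to gd14 (5% each), near the 6.71% and 5.74% of all genes. In the fit without pnd2 replicate 3, 2 rose and 3 fell (10% and 15%, beside 15.7% and 14.1%). Between gd12 and pnd2 0 rose and 2 fell (10%, beside 13.1% of all genes called lower and 14.4% called higher). Without that array 1 rose and 5 fell (5% and 25%, beside 18.7% and 17%). Mycn, a transcription factor that drives ribosome genes in growing embryonic tissue, read 2661, 2725 and 4204 at gd12 and 1324, 1453 and 1225 at gd14, a change of -1.22 ± 0.28 (2.33-fold, adjusted p = 0.0103). Cdkn1a, a p53 target that stops the cell cycle, rose by 1.36 ± 0.42 (adjusted p = 0.0457), and Myc changed by 0.79 ± 0.36 (adjusted p = 0.181), called without that array (adjusted p = 0.0238). Eif4e, the cap-binding protein, changed from gd12 to pnd2 by -0.85 ± 0.20 (adjusted p = 0.00664), and by -0.56 (adjusted p = 0.00262) without that array. Mtor, the kinase of the mTOR pathway, changed by -0.59 ± 0.19 (adjusted p = 0.0305), and by -0.80 without it. Of 19 cell division genes, 0 rose and 10 fell from gd12 to gd14 (52.6%, beside 5.74% of all genes), with a median of -0.62, and 15 fell without pnd2 replicate 3 (78.9%, beside 14.1%).

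Probe sets of the same ribosomal protein gene often differed in direction on pnd2 replicate 3. Of 20 members with more than 1 probe set bright enough to be kept, 11 had probe sets on both sides of 0 when that array was set against its mates. For Rpl22 a probe set read 19646, 20741 and 43265 on pnd2 replicates 1, 2 and 3 and another 8288, 9033 and 2388. The extremes for Rpl41 were -2.54 and 1.13 and for Rpl37a -2.46 and 1.31, on the log2 scale, while those for Rps29 (0.32 and 0.42) and Rps27l (1.92 and 2.13) lay close together. In 10 of these 11 genes the brightest probe set, which stands for the gene here, was higher on that array than on its mates, and in 1 it was lower. The change from gd12 to pnd2 had the same direction in all kept probe sets in 9 of the 20 genes. Without pnd2 replicate 3 this change still ran from -0.17 to 0.61 for Rpl22, -0.33 to 0.14 for Rpl41 and -0.31 to 0.19 for Rpl37a. For Rps29 it ran from 0.33 to 0.42. The counts of genes higher at pnd2 are those of the brightest probe sets. Over all 95 kept probe sets of the members the median change from gd12 to pnd2 was 0.26. Over 103 kept probe sets with several symbols it was also 0.26, with 83 higher and 20 lower, and 0.13 without pnd2 replicate 3. The median rise was thus not limited to the brightest probe sets, while the direction for single genes could depend on the probe set. Of the 48 chosen probe sets 15 carry the suffix x and 2 the suffix s, which mark probes able to bind related sequences, and this family has many processed pseudogenes.

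**Figure D5:**
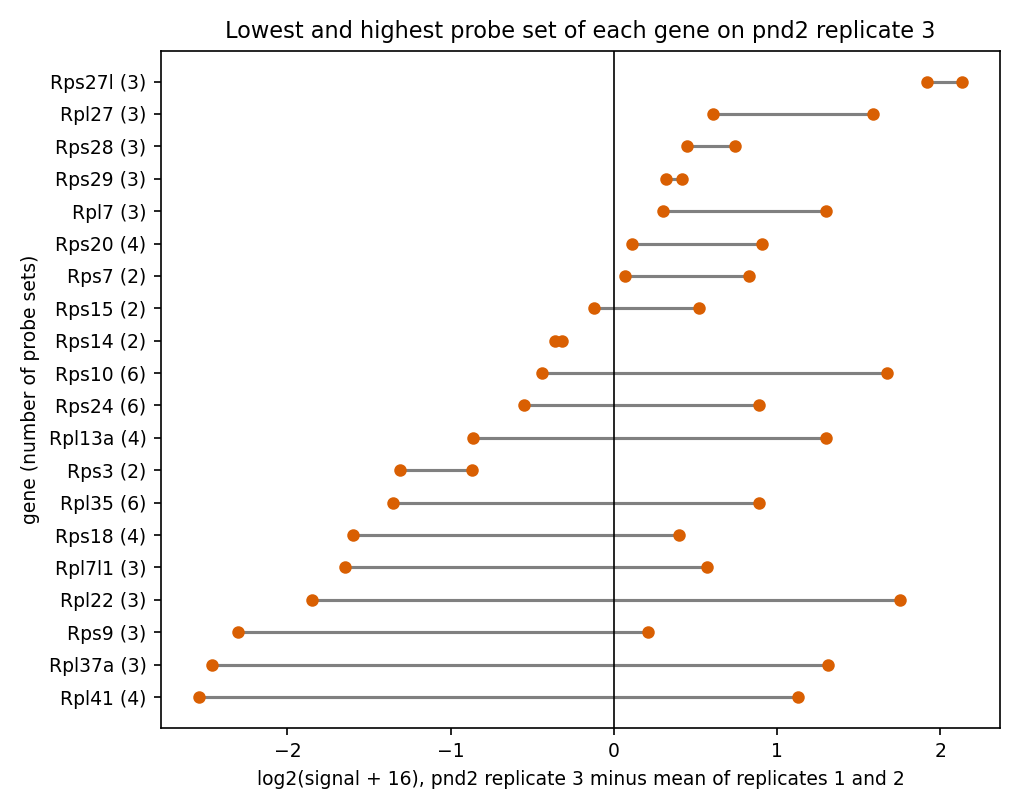
For each of the 20 member genes with at least 2 probe sets kept (number in brackets), the lowest and the highest probe set on pnd2 replicate 3, as log2(signal + 16) minus the mean of replicates 1 and 2. The bars of 11 genes cross 0, Rpl41 spanning -2.54 to 1.13, so the direction of that array depends on the probe set.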

How the data were processed

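RNA of whole epididymides (15 arrays) and of a newborn pool (1 array) was amplified in 2 rounds, labelled and measured on Affymetrix arrays. The deposited values are linear intensities, 1 for each probe set on each array, made with GCOS per the submitters' processing notes. Which signal algorithm was used is not given in the sources used here. Trimmed of its extremes, every array had a mean of 500. The number of arrays limits the precision. Of 45101 probe sets, 64 were controls, 34945 had 1 symbol, 932 several and 9160 were not listed. Probe sets at or above their array's median on at least 3 of 15 arrays were kept, the brightest for each gene, which left 12239 genes. Log2(signal + 16) was fitted with limma 3.58.1 in R 4.3.3, with 1 mean per stage, an intensity trend and Benjamini-Hochberg adjustment over all genes, which was tested on simulated data. The labels give no batch.

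The members and lists were chosen with earlier results of these data known. Genes named are, per comparison, up to 6 called members in each direction whose arrays did not overlap, the 5 largest and smallest ranges of stage means, each paralogue with its partner, up to 3 called genes a list and direction, and a few fixed genes. Rps6, Rpl6, Rpl27, Rps19, Rpl12, Rps25, Rpl41, Rpl37a and the genes whose promoters are printed were singled out after their values were seen. Alternatives were other scalings, constants, filters, probe sets, variance models and array sets, and each array left out.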

Additional observations from a re-analysis of the deposited data

Results flagged for a closer look

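Rpl3l, the paralogue of the 60S protein Rpl3 used in heart and skeletal muscle, lay outside the comparisons because its probe set was dim on the epididymis arrays, at 2.14 to 56.94. In the newborn pool it read 436.4, above all 15 of them, and this signal in an array that no comparison uses is why it is listed here. The pool is 1 array, so the value has no replicate check.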

How the results depend on the processing

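Rps4l and Rpl39l kept their calls from gd12 to pnd2 in each of the 27 and 26 alternatives run for them, and Rpl37 lost its call in 20 of 26. Rps9 turned from 0.46 to -0.77 without probe sets of suffix x or s (adjusted p = 0.22), where pnd2 replicate 3 read 79.37 beside 404.6 and 506.8, and the probe set's change was -0.01 without that array. The count of members called from gd12 to gd14, 1 in the reported fit, was 2 after quantile normalization, median centring or with 64 added, 4 with array weights and 3 without the set of pnd2 replicate 3, gd14 replicate 10 and gd16 replicate 9 or with only the 2 stages' arrays. With array weights 2 members were called from gd14 to gd16, 1 from gd16 to gd18 and 1 from gd18 to pnd2; without the 3 named arrays 1 was called from gd14 to gd16. From gd12 to pnd2 the count of 8 was 5 after median centring or with no filter, 3 without suffixes x and s, 4 without the trend and 2 with only the 2 stages' arrays. The F test's 8 became 5 after quantile normalization, 4 after median centring or without suffixes x and s, 3 with no filter or no trend and 17 with array weights. The members' median from gd16 to gd18 was 0.02 after quantile normalization, and that from gd18 to pnd2 was 0.50 after median centring. Leaving out each array in turn gave 1 to 4 members called from gd12 to gd14, 0 to 0 from gd14 to gd16, 0 to 1 from gd16 to gd18, 0 to 1 from gd18 to pnd2, 5 to 16 from gd12 to pnd2 and 3 to 17 in the F test. Their medians ran from -0.08 to 0.04, -0.17 to -0.08, 0.12 to 0.19, 0.16 to 0.33 and 0.15 to 0.34 in that order of comparisons. For most of these alternatives the share of all genes called is not given. A change in the count of members can there not be told apart from a change over all genes. No paired analysis was possible because each replicate number belongs to 1 stage. Signals near background, as of Rpl39l from gd16 on, limit the size of its folds.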
